A study of Mus musculus with 6 samples.

Results

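The data described here are the transcript levels of 40 genes of the lysosome in mouse liver tumours, with the MYC oncogene switched on and 4 days after it was switched off. The genes were taken from a list of symbols, chosen for their known roles with earlier results of these data in view, and each was found as 1 of the 52459 rows of the deposited count table. They comprise 10 cathepsins with the peptidase Tpp1, 10 glycosidases, 4 sulfatases, 3 genes of lipid hydrolysis and its cofactors (Asah1, Psap and Grn), 6 membrane proteins, 4 genes of the proton pump and the transcription factors Tfeb and Tfe3. All 6 samples were liver tumours of MYC-LAP-tTA mice, whose MYC transgene is driven by a tetracycline transactivator under a liver promoter. MYC was on in 3 of them (MYC-On), and the other 3 were taken 4 days after its inactivation (MYC-Off Day 4, written MYC-Off from here). The sources used here do not give the agent that switched MYC off, the strain or the age of the mice. The transgene is directed to hepatocytes, whereas the RNA came from whole tumour pieces that also hold macrophages, vessels and connective tissue. Whether each sample is a different animal is not said in the labels, and the p-values therefore cover only the spread among these libraries, which could be technical.

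The lysosome is the acidic organelle in which cells break down proteins, glycans, sphingolipids and material taken up by endocytosis or autophagy. Its soluble hydrolases are tagged with mannose 6-phosphate in the Golgi and delivered by receptors, its membrane is lined by heavily glycosylated LAMP proteins, and a vacuolar ATPase pumps in the protons that the hydrolases need. Many of its genes carry a short palindrome near their start site, the CLEAR element, which is bound by TFEB, TFE3 and MITF, and MYC with its partner MAX recognises the same central hexamer, CACGTG, called an E-box. Hepatocytes and liver macrophages are both rich in lysosomes.

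The libraries held 16292718 to 19265623 assigned reads. Levels are given as CPM, the reads of a gene scaled to a fixed library total with TMM, a factor that corrects for differences in RNA composition, and log2 fold changes are MYC-Off minus MYC-On with their standard error (SE). Myc stood at 779, 1018 and 854 CPM in MYC-On replicates 1, 2 and 3 and at 74.8, 10.2 and 18.7 CPM in MYC-Off replicates 1, 2 and 3, which is -4.67 on the log2 scale (SE 0.80; adjusted p = 0.0035 by the quasi-likelihood test of edgeR, used throughout). On this row, transgene reads and reads of endogenous Myc cannot be told apart. Hepatocyte markers were present in all 6 libraries, although Alb, which encodes albumin, was far lower in MYC-On (828 to 2646 CPM) than in MYC-Off (59067 to 203650 CPM). The 3 MYC-Off libraries differed among themselves. In replicate 1 the macrophage markers summed to 12197 CPM, against 4862 and 2442 CPM in replicates 2 and 3, and the hepatocyte markers to 107110 CPM, against 179740 and 287810 CPM. In replicate 3 Clec4f and Vsig4, markers of resident liver macrophages picked here after their values were seen, stood at 0 and 0.461 CPM, against 221 and 166 CPM in replicate 1 and 272 and 125 CPM in replicate 2. Values without a library are given below where they end or add a call, turn a direction or move a fold by over 1.5 times. Over all 14130 genes tested, 4222 were called higher and 3221 lower in MYC-Off at an adjusted p of 0.05, and scaling by library size only gave 2527 and 5300, with the median of all log2 fold changes at -0.56 in place of 0.18.

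The promoters are shown first, because the E-box was more frequent in them than in other promoters, although 21 of the 36 genes that could be searched had none. RefSeq start sites on GRCm38.p6, the assembly of the mm10 build, gave windows from 250 bases before to 50 bases after the start for 36 of the 40 genes. The windows of 15 of the 36 (41.7%) held the E-box CACGTG, against 11.5% of the 10521 tested genes with a window and 8.09% of all 27025 genes with one. The letters TCACGTGA, the E-box with the flanking bases that form the core of the CLEAR element, were in the windows of 7 of the 36 (19.4%), against 2.13% of tested genes and 1.12% of all genes. Both motifs are palindromes, so 1 search covers both strands, and every TCACGTGA is also counted as an E-box. The pieces below show the 7 genes with the longer motif, Lamp1 with 4 E-boxes in 66 bases, and Naglu and Glb1, which had the highest and the lowest fold change among the 15, with the matched letters in capitals, 5′ to 3′ on the strand of the gene.
Lamp1: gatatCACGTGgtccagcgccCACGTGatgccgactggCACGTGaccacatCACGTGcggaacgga
Ctsa: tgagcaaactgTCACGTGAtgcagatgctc
Ctsd: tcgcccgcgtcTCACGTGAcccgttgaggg
Gla: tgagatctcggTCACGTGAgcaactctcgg
Cln3: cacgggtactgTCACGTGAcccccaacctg
Mcoln1: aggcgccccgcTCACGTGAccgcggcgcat
Atp6v0d1: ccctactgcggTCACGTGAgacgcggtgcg
Atp6v1a: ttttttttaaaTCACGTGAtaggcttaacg
Naglu: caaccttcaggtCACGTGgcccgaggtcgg
Glb1: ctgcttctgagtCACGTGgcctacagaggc
The Lamp1 piece ends at the base before the start site (chr8:13159095-13159160, plus strand). The others lie at chr2:164833749-164833778 (Ctsa, plus), chr7:142387908-142387937 (Ctsd, minus), chrX:134601182-134601211 (Gla, minus), chr7:126583340-126583369 (Cln3, minus), chr8:3500462-3500491 (Mcoln1, plus), chr8:105566050-105566079 (Atp6v0d1, minus), chr16:44139373-44139402 (Atp6v1a, minus), chr11:101070009-101070038 (Naglu, plus) and chr9:114401018-114401047 (Glb1, plus). Ctsa and Gla each held 2 copies of the longer motif. In the GENCODE annotation the pieces of Ctsa, Ctsd, Cln3 and Mcoln1 lie wholly in exons of the same gene, as do 27 of the 30 bases of Naglu. Those of Gla, Atp6v0d1, Atp6v1a and Glb1 overlap no exon of theirs. A match is a description of these letters and not a measured binding site. The CLEAR element is known from lysosomal genes. The higher shares were therefore set in part by the choice of genes and motif, and they are no test.

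**Figure D1:**
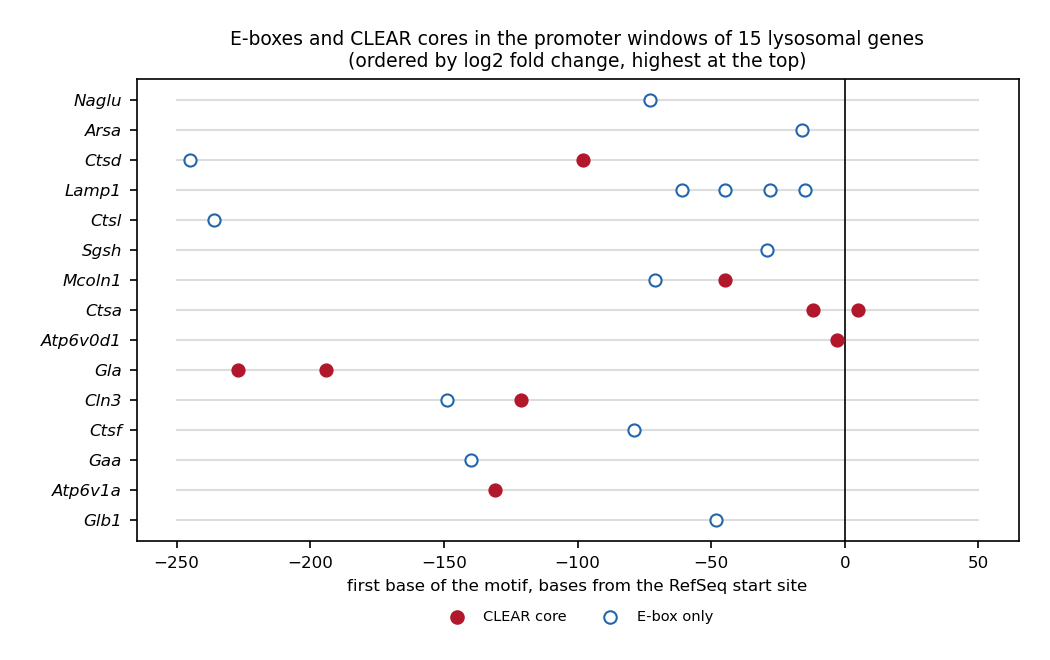
Position of each E-box (open circles) and each longer CLEAR core (filled circles) in the promoter windows of the 15 genes that held one. The x axis gives the first base of the motif in bases from the RefSeq start site, and genes are ordered from the highest log2 fold change (Naglu, 3.18) to the lowest (Glb1, -0.59). The 4 E-boxes of Lamp1 lie between 61 and 15 bases before the start. Filled circles belong to 7 genes with log2 fold changes from 0.15 to 2.09.

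Most of the 40 genes were higher after MYC inactivation. All 40 passed the filter on low counts, 30 of them (75%) were called higher and 0 lower, against 29.9% of all tested genes called higher and 22.8% called lower (52.7% in either direction). The median log2 fold change of the 40 genes was 1.41, against 0.18 for all tested genes. In 32 of the 40 every MYC-Off library lay above every MYC-On library, a pattern shown by 33.2% of tested genes, and in 1, Glb1, every MYC-Off library lay below, as in 29.8% of tested genes. Together 33 of the 40 had groups that did not overlap, against 63.1% of tested genes. In tumour RNA, fewer cells of a type and less RNA per cell cannot be told apart. With library size only, 14 of the 40 were called higher and 1 lower, against 2527 higher and 5300 lower among all 14130 tested genes. Under that scaling 31 of the 40 had a positive log2 fold change, and their median was 0.71, against -0.56 for all tested genes. The count of higher calls among the 40 was 18 without MYC-On replicate 1, 2 or 3 and 26 to 29 without a MYC-Off library. Over all genes it was 2841, 2776 and 2873 without MYC-On replicate 1, 2 and 3. Without a MYC-Off library it was 3839 to 4317. The distance of the members' median from that of all genes, 1.23, was 1.01 without MYC-Off replicate 1.

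**Figure D2:**
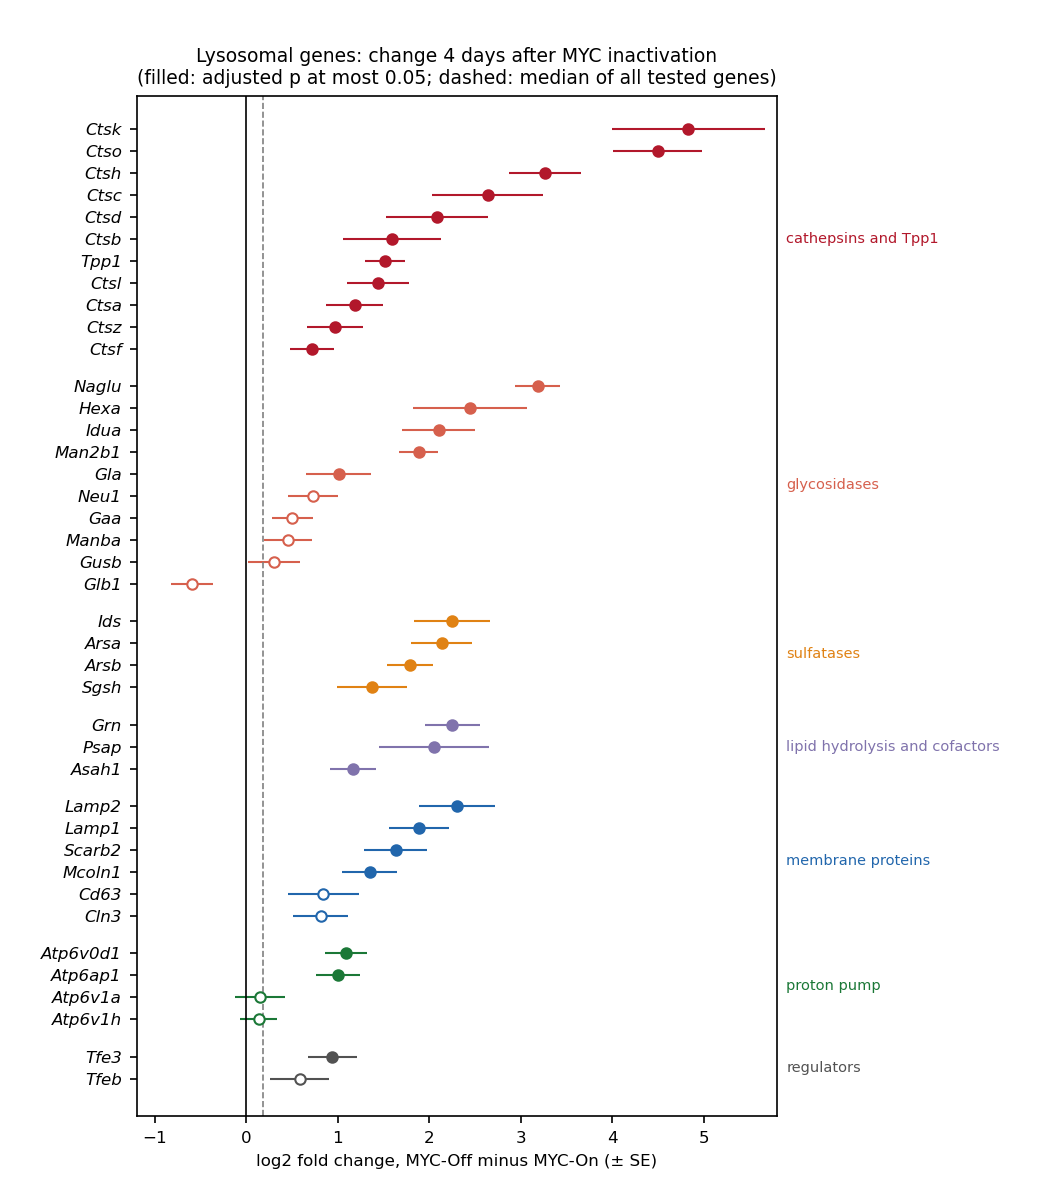
Log2 fold change of each of the 40 genes (x axis, MYC-Off minus MYC-On, bars are the SE), grouped by role on the y axis. Filled symbols were called (adjusted p at most 0.05, edgeR), the solid line is 0 and the dashed line is the median of all tested genes, 0.18. All cathepsin symbols are filled, from Ctsf (0.72, but -0.0050 with library size only) to Ctsk (4.83), and Glb1 is the only symbol left of 0 under TMM scaling.

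The cathepsins, the proteases of the lysosome, were higher in MYC-Off. All 10 cathepsins and Tpp1, a tripeptidyl peptidase, were called higher in MYC-Off under TMM scaling (median log2 fold change 1.59), and no MYC-On library reached the lowest MYC-Off library for any of them. With library size only 5 of the 11 were called higher, and 4 or 5 were when a MYC-On library was left out. The largest fold changes of the group were in Ctsk and Ctso, the 2 genes lowest per exon length with MYC on. Ctsk, the collagen-degrading cathepsin best known from osteoclasts, stood at 0.267, 0.327 and 0.838 CPM in MYC-On and at 27.5, 7.96 and 5.38 CPM in MYC-Off (log2 fold change 4.83, SE 0.84, adjusted p = 0.00364). It was highest in MYC-Off replicate 1, and the log2 fold change was 3.65 without that library and 5.43 without MYC-On replicate 3. With 6, 8 and 17 reads in MYC-On, Ctsk passed the filter on low counts only through the MYC-Off libraries. Ctso, a cysteine cathepsin, went from 2.85, 2.46 and 2.91 CPM to 54.9, 101 and 29.7 CPM (4.49, SE 0.49, adjusted p = 0.000967). Unlike Ctsk it was highest in MYC-Off replicate 2, and its log2 fold change was 3.90 without that library and 4.43 without replicate 1.

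Ctsh, an aminopeptidase as well as an endopeptidase, was even across the MYC-Off libraries. Its level was 49.4, 28.5 and 67.6 CPM in MYC-On and 394, 473 and 533 CPM in MYC-Off (3.27, SE 0.39, adjusted p = 0.00116). Ctsc, which activates the serine proteases of immune cell granules, rose from 26.5, 24.7 and 36.9 CPM to 294, 206 and 49.6 CPM (2.64, SE 0.60, adjusted p = 0.0099). Here the lowest MYC-Off library, replicate 3, was only slightly above the highest MYC-On library, and the call was lost without MYC-On replicate 2 (adjusted p = 0.0538). Without MYC-Off replicate 1 the log2 fold change was 1.97.

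The most abundant cathepsins were already high with MYC on. Ctsb, a cysteine protease, stood at 1776, 1742 and 2304 CPM in MYC-On and at 10071, 4207 and 3255 CPM in MYC-Off (1.59, SE 0.53, adjusted p = 0.0387). Ctsd, the main aspartic protease of the lysosome, stood at 354, 388 and 581 CPM and at 3370, 1003 and 1254 CPM (2.09, SE 0.56, adjusted p = 0.0174). In both, MYC-Off replicate 1 was more than 2-fold above the other MYC-Off libraries, and without it the log2 fold changes were 0.80 (adjusted p = 0.069) for Ctsb and 1.21 (adjusted p = 0.016) for Ctsd. Ctsl, a cysteine protease with broad specificity, was highest in replicate 3 instead, with 378, 306 and 391 CPM in MYC-On and 998, 712 and 1205 CPM in MYC-Off (1.44, SE 0.34, adjusted p = 0.0109).

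The 4 remaining proteases had log2 fold changes of 0.72 to 1.52. Tpp1, whose loss causes a neuronal storage disease, was among the most even, with 75.0, 79.6 and 86.7 CPM in MYC-On and 257, 222 and 212 CPM in MYC-Off (1.52, SE 0.22, adjusted p = 0.00196). Ctsa, the protective protein that holds β-galactosidase and neuraminidase together, rose from 213 ± 25.5 to 483 ± 128 CPM (SD, n = 3; 1.18, SE 0.31), and Ctsz, a carboxypeptidase, from 199 ± 16.7 to 388 ± 122 CPM (0.97, SE 0.31). Ctsf rose from 9.20 ± 0.520 to 15.1 ± 0.308 CPM (0.72, SE 0.25), but its direction was not kept with library size only (-0.0050). Among the proteases, the calls of Ctsa, Ctsb, Ctsd, Ctsf, Ctsl and Ctsz were lost without any 1 MYC-On library (adjusted p from 0.0519 to 0.151). Those of Ctsb, Ctsf and Ctsz were lost without MYC-Off replicate 1 (Ctsf 0.0981, Ctsz 0.0681) and that of Ctsf also without MYC-Off replicate 2 (0.117) or 3 (0.091), so that of the 11 genes Ctsh, Ctsk, Ctso and Tpp1 kept theirs when any 1 library was left out.

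**Figure D3:**
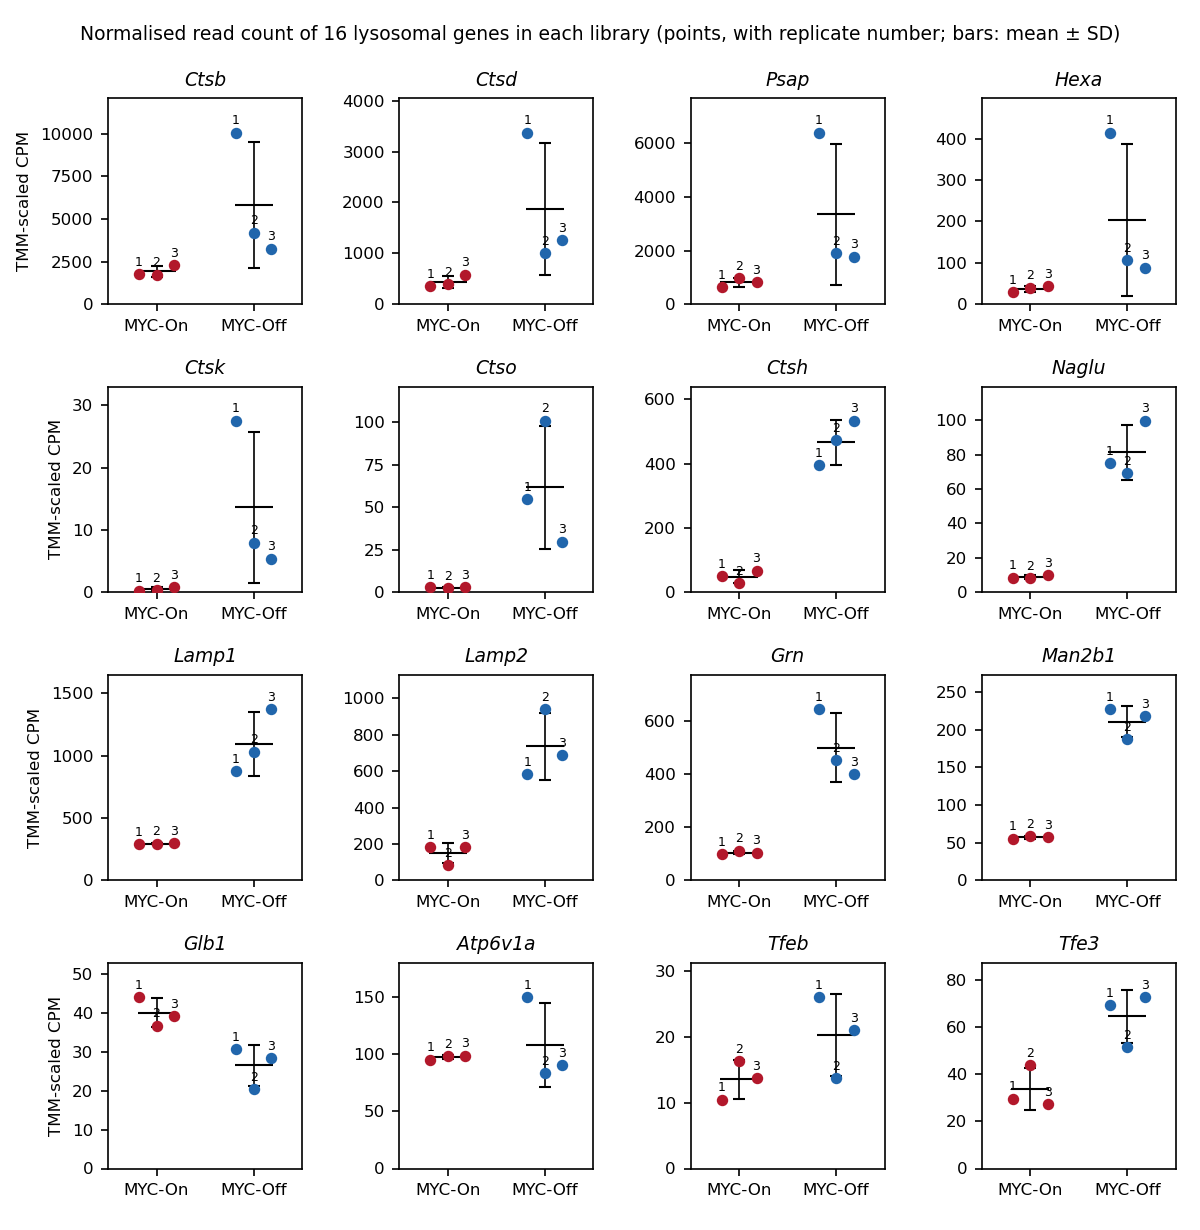
TMM-scaled CPM (y axis, from 0, a separate scale for each gene) of 16 genes in the 3 MYC-On (red) and 3 MYC-Off (blue) libraries, with replicate numbers beside the points and bars for mean ± SD. In Ctsb, Ctsd, Psap, Hexa and Ctsk the point of MYC-Off replicate 1 stands well above those of replicates 2 and 3, whereas Ctsh, Naglu, Lamp1 and Man2b1 are raised evenly. The groups overlap in Atp6v1a and Tfeb, and in Glb1 the MYC-Off points lie below.

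The glycosidases, which remove sugars from glycoproteins, glycolipids, glycogen and glycosaminoglycans, divided. Of 10 genes 5 were called higher and 0 lower, and the median log2 fold change was 0.87. The count was 3 with library size only and 3 without any 1 MYC-On library. Naglu, which acts on heparan sulfate, had the smallest adjusted p of the 40 genes. It stood at 8.60, 8.19 and 10.1 CPM in MYC-On and at 74.9, 69.3 and 99.7 CPM in MYC-Off (3.18, SE 0.25, adjusted p = 0.000805). Man2b1, the lysosomal α-mannosidase, was as even, with 55.4, 59.0 and 57.0 CPM against 228, 188 and 218 CPM (1.88, SE 0.21, adjusted p = 0.000979). Both groups were tight in these 2 genes and far from each other.

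Hexa, the α subunit of β-hexosaminidase, which degrades the ganglioside GM2, was uneven. Its level was 29.0, 39.5 and 43.3 CPM in MYC-On and 415, 106 and 88.4 CPM in MYC-Off (2.44, SE 0.62, adjusted p = 0.0143). The log2 fold change was 1.24 without MYC-Off replicate 1, and the call was lost without any 1 MYC-On library (adjusted p from 0.0521 to 0.0613). Idua, the iduronidase of heparan and dermatan sulfate breakdown, rose from 3.38 ± 0.269 to 14.5 ± 6.52 CPM (2.10, SE 0.40, adjusted p = 0.0049). Gla, the α-galactosidase lacking in Fabry disease, passed the threshold narrowly, from 16.4 ± 2.62 to 32.9 ± 15.5 CPM (1.01, SE 0.36, adjusted p = 0.047). Its log2 fold change was 0.41 without MYC-Off replicate 1 (adjusted p = 0.215), and its call was also lost without MYC-Off replicate 3 (0.0665) or any 1 MYC-On library (0.0938 to 0.158).

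The remaining 5 glycosidases were not called. Glb1, the β-galactosidase used as a stain for senescent cells, was the only one of the 40 genes with a negative log2 fold change under TMM. It stood at 44.2, 36.8 and 39.3 CPM in MYC-On and at 30.7, 20.5 and 28.5 CPM in MYC-Off (-0.59, SE 0.23, adjusted p = 0.0655). Its groups did not overlap, and it passed without MYC-Off replicate 1 (-0.86, adjusted p = 0.0216), with library size only (-1.29, adjusted p = 0.0133) and with the DESeq2 test. Gusb, the β-glucuronidase, had overlapping groups, with 96.4, 113 and 96.3 CPM and 157, 80.5 and 139 CPM (0.30, SE 0.29, but -0.037 without MYC-Off replicate 1). The values were 0.50 for Gaa (glycogen breakdown), 0.73 for Neu1 (a sialidase) and 0.46 for Manba (a β-mannosidase), with adjusted p of 0.0945, 0.0589 and 0.174. With library size only, Gaa, Gusb, Neu1 and Manba had negative log2 fold changes of -0.27, -0.38, -0.045 and -0.33, and Neu1 passed without MYC-Off replicate 1 (0.75, adjusted p = 0.0403).

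All 4 sulfatases, which strip sulfate from glycosaminoglycans and sulfolipids, were called higher, at a median log2 fold change of 1.96, as were 3 of the 4 with library size only. Ids, the iduronate sulfatase, stood at 7.39, 7.0 and 9.37 CPM in MYC-On and at 59.5, 32.8 and 20.2 CPM in MYC-Off (2.24, SE 0.42, adjusted p = 0.00462). Arsa, the sulfatase of myelin lipids, rose from 6.68, 9.13 and 7.45 CPM to 23.1, 47.3 and 31.9 CPM (2.13, SE 0.33, adjusted p = 0.00238), and it was lowest in the library where Ids was highest. Without that library, MYC-Off replicate 1, the log2 fold change of Ids was 1.60. Arsb was level across MYC-Off, at 20.4, 21.6 and 22.7 CPM, against 5.79, 5.65 and 7.25 CPM in MYC-On (1.79, SE 0.26, adjusted p = 0.00187). Sgsh, the heparan N-sulfatase, rose from 2.94 ± 0.210 to 7.64 ± 2.14 CPM (1.38, SE 0.38, adjusted p = 0.0201). The Sgsh call was lost without any 1 MYC-On library (adjusted p from 0.0757 to 0.0826) and without MYC-Off replicate 2 (0.0678).

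The 3 genes of lipid hydrolysis and its cofactors rose under TMM, and 1 of the 3 was called higher with library size only. Psap, the precursor of the saposins that present sphingolipids to their hydrolases, was the most abundant of the 3, with 637, 964 and 834 CPM in MYC-On and 6398, 1913 and 1773 CPM in MYC-Off (2.05, SE 0.60, adjusted p = 0.0244). It was 3.47-fold higher in MYC-Off replicate 1 than in the mean of replicates 2 and 3, its log2 fold change was 1.04 without that library (adjusted p = 0.0206), and the call was lost without any 1 MYC-On library (adjusted p from 0.0748 to 0.106). Grn, which encodes progranulin, a partner of prosaposin with many roles in macrophages, stood at 97.6, 112 and 104 CPM and at 644, 451 and 400 CPM (2.25, SE 0.30, adjusted p = 0.00154). Asah1, the acid ceramidase, rose from 52.3 ± 6.47 to 117 ± 27.8 CPM (1.17, SE 0.25, adjusted p = 0.00728). The 2 MYC groups did not overlap in any of the 3.

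Of the 6 membrane proteins 4 rose, with a median log2 fold change of 1.49 for the 6, and 2 of the 6 were called higher with library size only. Lamp1, the main glycoprotein of the lysosomal membrane, varied little with MYC on, at 291, 295 and 300 CPM, and reached 873, 1031 and 1374 CPM in MYC-Off (1.89, SE 0.33, adjusted p = 0.00354). Lamp2, which also serves autophagy as a receptor, stood at 182, 84.2 and 182 CPM and at 583, 943 and 688 CPM (2.31, SE 0.42, adjusted p = 0.00405). Both LAMP genes were lowest in MYC-Off replicate 1, the reverse of Ctsb, Ctsd and Psap, and their log2 fold changes without it were 1.88 and 2.30. Scarb2, the receptor that carries glucocerebrosidase to the lysosome, rose from 67.4 ± 12.4 to 209 ± 80.5 CPM (1.63, SE 0.35, adjusted p = 0.00749). Mcoln1, the calcium channel of the lysosomal membrane, went from 15.6, 16.8 and 17.8 CPM to 27.7, 41.9 and 58.4 CPM (1.35, SE 0.30, adjusted p = 0.00897), again lowest in replicate 1.

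The other membrane proteins did not pass. Cd63, a tetraspanin of lysosomes and exosomes, had overlapping groups, with 48.8, 42.0 and 64.6 CPM in MYC-On and 142, 49.8 and 86.5 CPM in MYC-Off (0.84, SE 0.39, adjusted p = 0.106), and it passed without MYC-Off replicate 2 (1.09, adjusted p = 0.0399) but stood at 0.25 without replicate 1. A processed copy, Cd63-ps, matches the Cd63 transcript at 98.5% of 812 bases, so its reads are uncertain. Cln3, mutated in a childhood neuronal storage disease, just missed the threshold, with 12.7 ± 2.31 and 22.4 ± 6.36 CPM (0.81, SE 0.30, adjusted p = 0.0534), and it passed with a filter of 1 CPM in 3 libraries (adjusted p = 0.0466).

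The proton pump had the smallest median of the 7 role groups. Of its 4 genes 2 were called higher, and the median log2 fold change was 0.57 under TMM but -0.09 with library size only, which called 0. Atp6v0d1, a subunit of the membrane sector, stood at 54.7, 55.7 and 60.3 CPM in MYC-On and at 122, 93.8 and 147 CPM in MYC-Off (1.09, SE 0.23, adjusted p = 0.00725). Atp6ap1, an accessory protein needed to assemble the pump, rose from 78.9 ± 7.09 to 158 ± 35.3 CPM (1.00, SE 0.24, adjusted p = 0.0119), a call that was lost without any 1 MYC-On library (0.0562 to 0.065). The groups overlapped for both genes of the catalytic sector that faces the cytosol. Atp6v1a, the ATP-hydrolysing subunit, stood at 95.0, 97.9 and 98.7 CPM and at 150, 83.6 and 90.3 CPM (0.15, SE 0.27, adjusted p = 0.665), and Atp6v1h, its regulatory subunit, at 47.3 ± 3.06 and 52.0 ± 6.91 CPM (0.14, SE 0.20, adjusted p = 0.599). Their sign was negative without MYC-Off replicate 1 (-0.31 and -0.070) and with library size only (-0.50 and -0.58).

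The 2 regulators were expressed at low levels. Tfeb, which drives lysosomal genes when it enters the nucleus, stood at 10.5, 16.3 and 13.8 CPM in MYC-On and at 26.0, 13.7 and 21.0 CPM in MYC-Off. The groups overlapped, and the difference did not pass (0.58, SE 0.32, adjusted p = 0.166). Tfe3, its close relative, stood at 29.6, 43.7 and 27.3 CPM and at 69.2, 51.4 and 72.7 CPM and was called higher (0.94, SE 0.27, adjusted p = 0.0212), without overlap. The Tfe3 call was lost without MYC-On replicate 1 (0.104) or 3 (0.095) and without MYC-Off replicate 1 (0.0586) or 3 (0.0698), and with library size only the log2 fold changes were -0.097 for Tfeb and 0.22 for Tfe3. Transcript levels do not report where these proteins are in the cell. The RefSeq windows of both genes held no CACGTG.

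Fold changes were also set beside the promoter letters. Of the 15 genes with an E-box in a window 11 were called higher, with log2 fold changes from -0.59 to 3.18 and a median of 1.18. Of the 21 genes with a window and no E-box 16 were called higher, with values from 0.30 to 4.83 and a median of 1.79. Among the 7 genes with the longer motif 5 were called higher (Ctsa, Ctsd, Gla, Mcoln1 and Atp6v0d1), from 0.15 to 2.09 with a median of 1.09. The ranges overlapped, and Naglu and Glb1, each with 1 E-box, had the highest and the lowest value of the 15.

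To compare levels between genes, CPM was divided by the length of the merged exons in kilobases. On this scale a handful of genes held most of the signal in both groups. With MYC on, Ctsb stood at 320.7 ± 52.1, Psap at 296 ± 60.0, Ctsd at 188 ± 52.1, Ctsz at 138 ± 11.6 and Lamp1 at 110 ± 1.82 CPM per kilobase (SD, n = 3), while Ctsk (0.316 ± 0.208) and Ctso (0.535 ± 0.0482) were last among the 40. With MYC off, Psap (1225 ± 959), Ctsb (966 ± 610) and Ctsd (798 ± 553) were again the 3 highest, and Ctsk and Ctso had moved to ranks 28 and 25. All 3 of the highest genes peaked in MYC-Off replicate 1, so their SDs share that library and do not compare the genes. Their order was not tested. The genes Ctsh and Naglu moved from ranks 21 and 29 to 8 and 18, while Atp6v1a and Glb1 moved from 13 and 19 down to 24 and 29. Sgsh was last in MYC-Off, at 1.73 ± 0.485 CPM per kilobase. The 40 genes together took 0.676%, 0.725% and 0.790% of all assigned reads in MYC-On and 2.73%, 0.930% and 0.912% in MYC-Off.

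The MYC-Off libraries did not rank the 40 genes alike. MYC-Off replicate 1 was the highest of the 3 for 25 genes, replicate 2 for 4 and replicate 3 for 11. The ratio of replicate 1 to the mean of the other 2 ran from 0.552 (Mcoln1) to 4.27 (Hexa), with a median of 1.31. It was 2.99 for Ctsd, 2.70 for Ctsb, 2.30 for Ctsc, 2.24 for Ids and 4.13 for Ctsk. By contrast it was 0.583 for Arsa, 0.715 for Lamp2, 0.727 for Lamp1 and 0.784 for Ctsh. The genes thus fell on both sides of an equal level.

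**Figure D4:**
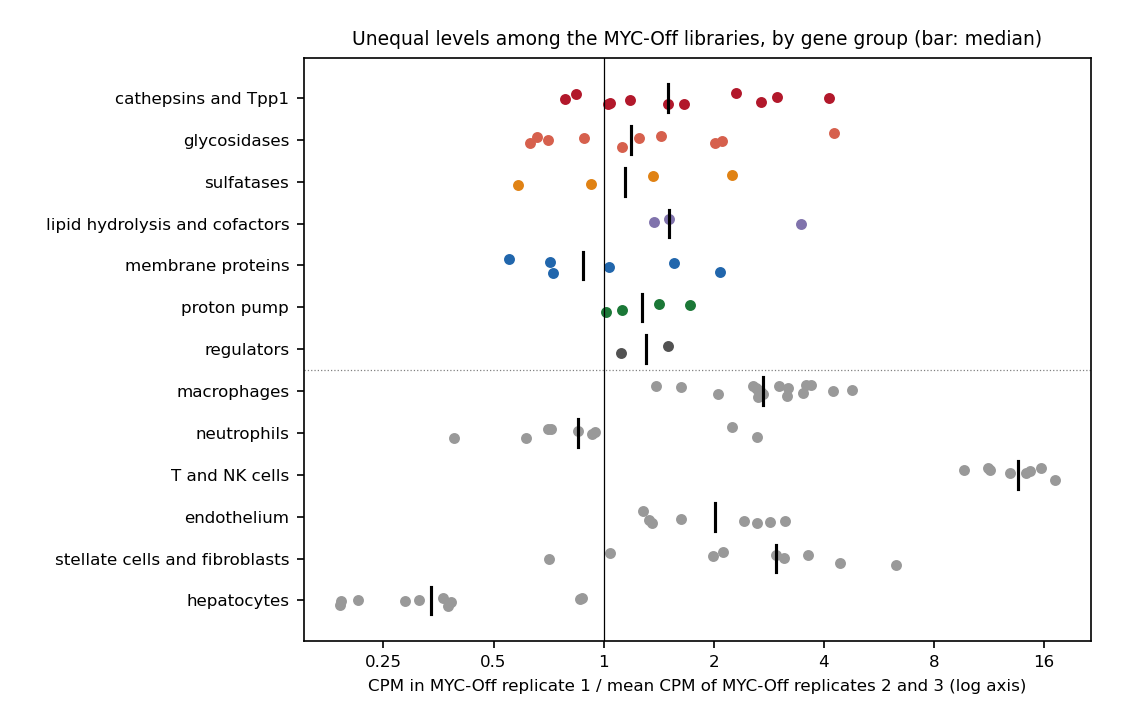
Ratio of the CPM in MYC-Off replicate 1 to the mean CPM of MYC-Off replicates 2 and 3 (x axis, log scale) for each tested gene (points) of the lysosomal role groups (colours) and of marker lists (grey), with a bar at each median. Macrophage markers all lie to the right of 1 and hepatocyte markers all to the left, and the lysosomal genes span both sides.

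Markers of other cell types moved in the same comparison, and their part in the lysosomal values was not tested. Of 17 macrophage markers 14 were called higher, and their summed level was 859 to 1570 CPM in MYC-On and 2442 to 12197 CPM in MYC-Off, with no marker at 0 reads in a group. The count was 8 without MYC-On replicate 1 or 2 and ran from 8 to 17 when 1 library was left out. Lyz2, the lysozyme of macrophages, stood at 226, 239 and 483 CPM in MYC-On and at 3347, 1288 and 937 CPM in MYC-Off, whereas Cd5l, made by liver macrophages, was at 2682, 1074 and only 49.2 CPM in MYC-Off against 221 to 383 CPM in MYC-On. Of 10 hepatocyte markers 8 were called higher, with sums of 4174 to 8507 CPM and 107110 to 287810 CPM. The hepatocyte count was 6 without MYC-On replicate 2 or 3. The macrophage list had a median ratio of replicate 1 to the other MYC-Off libraries of 2.74, and the hepatocyte list had one of 0.338. Called higher were also 8 of 9 tested markers of stellate cells and fibroblasts (sums 144 to 152 and 1011 to 2392 CPM), 7 of 8 of endothelium (55.0 to 64.9 and 308 to 659 CPM) and 9 of 9 of neutrophils (2.46 to 3.70 and 168 to 275 CPM). With 1 library left out these counts ran from 7 to 9, from 6 to 9 and from 9 to 10. Among the neutrophil markers Ngp, with 5, 6 and 3 reads in MYC-On, passed the filter on low counts only through the MYC-Off libraries. The 10 listed neutrophil markers together reached only 2.46 to 3.70 CPM in MYC-On. Others of them therefore also needed MYC-Off libraries to pass the filter. The neutrophil count of 9 of 9 rests in part on markers admitted by the group where they were high. The calls were 5 of 8 for T and NK cells (5.79 to 8.06 and 5.61 to 256 CPM) and 2 of 3 for B cells (4.85 to 10.1 and 14.4 to 235 CPM). For cholangiocytes they were 2 of 5, with 1 called lower (44.2 to 104 and 86.3 to 257 CPM). The T and NK count was 0 without MYC-On replicate 1 or 2 and 1 without MYC-On replicate 3 or MYC-Off replicate 1. The B cell count was 0 or 1 without a MYC-On library. Without MYC-Off replicate 3 the counts were 10 of 10 listed T and NK markers and 4 of 7 listed B cell markers. Further markers passed the filter in that fit, so counts above the number tested are not comparable with the others.

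**Figure D5:**
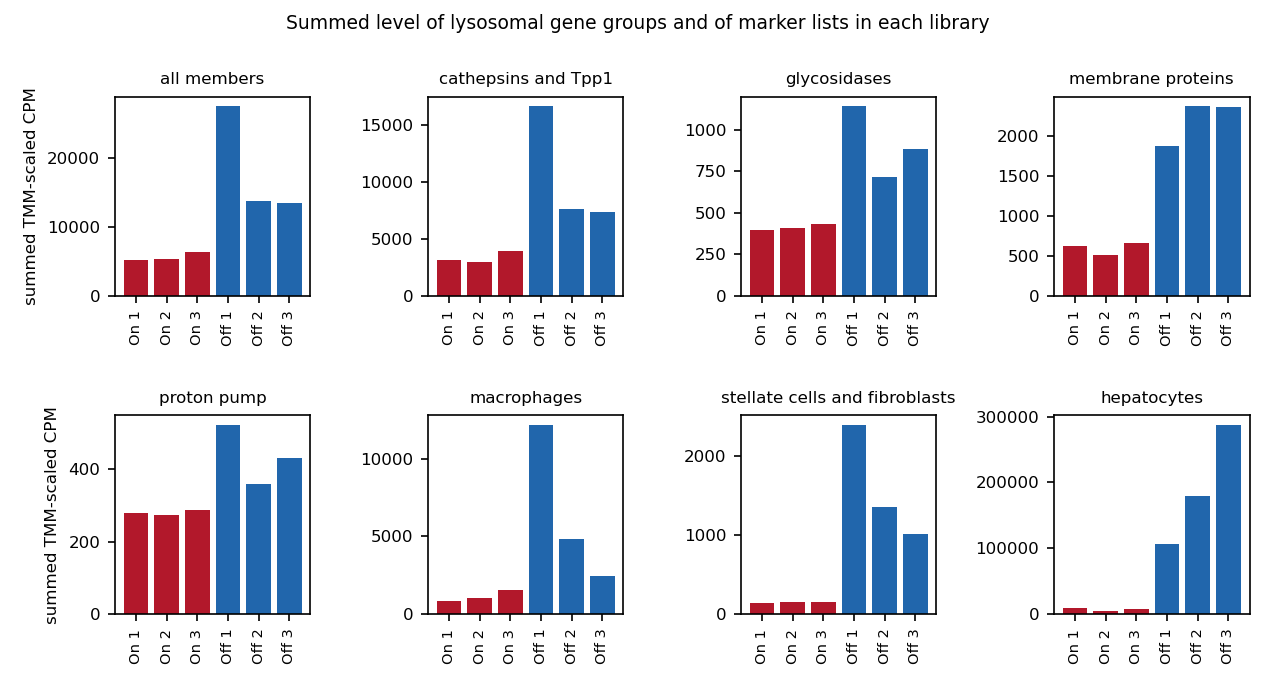
Summed TMM-scaled CPM (y axis, from 0, a separate scale for each panel) of all 40 genes, of 4 role groups and of 3 marker lists in each of the 6 libraries (red MYC-On, blue MYC-Off). The sums of the 40 genes were 5242 to 6345 CPM in MYC-On and 27558, 13689 and 13489 CPM in MYC-Off, and the membrane proteins, unlike the cathepsins, are lowest in MYC-Off replicate 1 among the MYC-Off libraries.

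Other genes of the lysosome were read from lists in the same fit, which called 29.9% of all tested genes higher and 22.8% lower. Of 30 further hydrolases and cofactors 27 were called higher and 0 lower (median log2 fold change 1.68). Ctse, an aspartic protease of the endosome, stood at 0.937 ± 0.222 and 36.7 ± 14.4 CPM (5.29, SE 0.43, adjusted p = 0.000805), and Hgsnat, which acts beside Naglu and Sgsh on heparan sulfate, at 3.16 ± 1.17 and 63.3 ± 22.0 CPM (4.32, SE 0.41, adjusted p = 0.000849). Ctss, the cathepsin of antigen-presenting cells, was at 25.4, 34.4 and 44.2 CPM and at 821, 230 and 164 CPM (3.55, SE 0.67, adjusted p = 0.00488), and at 2.36 without MYC-Off replicate 1. With library size only, 11 of the 30 were called higher and 1 lower, and 17 were called higher without MYC-On replicate 1 or 2. Of 18 further membrane proteins and transporters 13 were called higher and 0 lower (median 1.27), with Ostm1, a partner of the chloride channel Clcn7, at 2.05, the peptide transporter Abcb9 at 2.02 and the cobalamin exporter Lmbrd1 at 1.97. With library size only 2 of these 18 were called higher and 2 lower, and 6, 7 and 8 were called higher without MYC-On replicate 1, 2 and 3. Ostm1 stood at 1.41 without MYC-Off replicate 1, and the call of Abcb9 was lost without MYC-On replicate 1 or 2 (adjusted p of 0.0564 and 0.0504).

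The further proton pump subunits were read the same way. Of 15 genes 5 were called higher and 0 lower, a share close to that of all genes (29.9% higher), with medians of 0.43 under TMM and -0.24 with library size only. Library size only called 1 higher and 1 lower, and 1 to 4 were called higher when a library was left out. The 5 were Atp6v0d2 (2.87, SE 0.78), an isoform known from osteoclasts and macrophages, Atp6v0a1 (1.36), Tcirg1 (1.34), Atp6v1d (0.88) and Atp6v0a2 (0.66, adjusted p = 0.0496, and -0.097 with library size only). Atp6v0d2 stood at 14.5, 16.1 and 31.8 CPM in MYC-On and at 337, 49.7 and 70.1 CPM in MYC-Off, highest in replicate 1, and its log2 fold change was 1.38 without that library. The call of Atp6v0d2 was lost without MYC-On replicate 1 or 2, that of Tcirg1 without any 1 MYC-On library, that of Atp6v1d without MYC-On replicate 1 or 3, and that of Atp6v0a2 without any 1 of the 6 libraries (adjusted p from 0.0509 to 0.206). Among 16 tested genes of lysosomal nutrient sensing and the MiT factors 3 were called higher and 0 lower, a share below that of all genes (29.9% higher). The median was 0.32, or -0.37 with library size only, which called 1 higher and 3 lower. The 3 called higher under TMM were the TFEB relatives Mitf (2.07 ± 0.528 to 13.1 ± 11.7 CPM) and Tfec (2.53 ± 0.557 to 15.2 ± 11.4 CPM), and Lamtor4, a subunit of the complex that anchors mTORC1 to the lysosome (17.5 ± 4.86 to 40.8 ± 1.11 CPM). Mitf and Tfec were both highest in MYC-Off replicate 1, at 26.4 and 28.0 CPM, and lowest in replicate 3, at 4.22 and 6.45 CPM. Without replicate 1 their log2 fold changes were 1.49 in place of 2.66 and 1.64 in place of 2.59, and the call of Mitf was lost without any 1 MYC-On library (adjusted p from 0.0531 to 0.0727).

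Genes that deliver hydrolases to the lysosome were called in both directions. Of 10 genes for mannose 6-phosphate tagging and sorting 4 were called lower and 3 higher (median -0.07), beside 22.8% lower and 29.9% higher among all genes. Igf2r, the large mannose 6-phosphate receptor, fell from 390, 466 and 273 CPM in MYC-On to 96.0, 92.5 and 82.0 CPM in MYC-Off (log2 fold change -2.06, SE 0.29, adjusted p = 0.00183). Gga2 and Gga3, adaptors that load the receptors into vesicles, fell from 143 ± 29.0 to 33.1 ± 6.90 CPM (-2.11, SE 0.26, adjusted p = 0.00125) and from 66.4 ± 18.2 to 20.3 ± 2.64 CPM (-1.71, SE 0.26, adjusted p = 0.00236). The groups did not overlap in these 3 genes, and the count of 4 lower calls was obtained under each of the 17 alternatives. The other calls, named after their values were seen, were the tagging enzyme subunit Gnptab (lower), its γ subunit Gnptg, the sorting receptor Sort1 and the sulfatase-activating enzyme Sumf1 (higher), and the count of higher calls was 0 with library size only and 0 to 2 when a library was left out. Of 7 inhibitors of cysteine proteases 2 passed the count filter, and both were called higher: Cst3, the secreted cystatin C, from 59.9 ± 16.1 to 443 ± 334 CPM (2.89, SE 0.57, adjusted p = 0.00565), and Cstb, its cytosolic relative, from 35.7 ± 8.88 to 190 ± 129 CPM (2.41, SE 0.50, adjusted p = 0.00699). The log2 fold change of Cst3 was 1.92 without MYC-Off replicate 1, and that of Cstb was 1.65 without MYC-Off replicate 3.

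Positions and shared sequence limit some values. In the GENCODE annotation, exons of 15 of the 40 genes overlap those of another gene, and for 8 (Ctsa, Ctsb, Ctsd, Ctsl, Hexa, Arsa, Arsb and Sgsh) the overlap is at least 10% of the exon length. With the strand setting unknown, reads in such stretches are uncertain, and 22 of the 32 genes without such an overlap were called higher. Ctsd shares 808 exon bases (34.4%) with Gm49369 on the same strand, which no strand setting could separate. Gm49369 has no row of its own in the deposited counts. Ctsb (chromosome 14, 63122462 to 63145923, plus strand) shares 774 exon bases with Fdft1 on the other strand, and Ctsa (chromosome 2, 164832873 to 164841032, plus strand) shares 495 with Pltp, which was itself called higher (log2 fold change 3.03). Idua (chromosome 5, 108660331 to 108684557, plus strand) shares 141 with Slc26a1, also called higher (6.42). Naglu (chromosome 11, 101070012 to 101077672, plus strand), Man2b1 (chromosome 8, 85083270 to 85098282, plus strand), Ctso (chromosome 3, 81932601 to 81956725, plus strand) and Ctsh (chromosome 9, 90054152 to 90076089, plus strand) overlap no other annotated exon. Ctsh matches Gm5398 at 91.0% over 354 bases, and no match of at least 200 bases and 90% identity was found for the other 3.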

How the data were processed

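The authors deposited whole-number read counts, 1 row per gene symbol, with no normalization. The submitters' processing notes name the mm10 build and, as tools, Trimmomatic, STAR, Picard, featureCounts and DESeq2. The sources used here do not give tool versions, the annotation, the strand setting or how multiply matching reads were treated. Sample titles gave the groups and replicate numbers. Of the rows, 26 had a date in place of the symbol and 2 repeated a symbol, none of them a gene described here.

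The whole table was fitted with edgeR (4.0.16, under R 4.3.3). Genes passed filterByExpr at a minimum count of 10 and a minimum total of 15, scaling was by TMM, the quasi-likelihood fit was robust, and p-values were adjusted by Benjamini-Hochberg over all 14130 genes at a threshold of 0.05. The SE is the log2 fold change divided by the square root of F. No 2 replicates agreed within sampling noise (chi-square at least 29.1 per degree of freedom). A single read corresponded to 0.0409 to 0.0768 CPM. In simulated data of 14130 genes, 200 of them changed, the fit called 3 of 50 genes changed 2-fold and 23 of 50 changed 4-fold. It called 38 of 50 changed 8-fold and 46 of 50 changed 16-fold, with 6 false calls. The Benjamini-Hochberg cut depends on how many genes change, and the measured libraries gave 7443 calls. The simulated shares therefore cannot be carried over to the real comparison. A gene that was not called may still differ.

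The 40 genes, the other lists and the motifs were chosen with earlier results of these data known. Genes named by rule are the 40, Myc, the 3 called genes with the largest change in each other lysosomal list (all of them where at most 5 were called) and the 2 most abundant markers of a list. The markers Clec4f and Vsig4 and the sorting genes Gnptab, Gnptg, Sort1 and Sumf1 were named after their values were seen. Some genes that overlap or match one of the 40 are named as well. GENCODE mouse release M21 gave coordinates, exon lengths and overlaps, and RefSeq on GRCm38.p6 gave promoter sequences. Near copies were searched with blastn 2.17.0 in GENCODE transcripts (at least 200 bases at 90% identity). Alternatives changed the scaling (DESeq2 size factors, or library size only with all genes or leaving out the 20 most abundant), the filter (none, or 1 CPM in 3 libraries), the test (DESeq2 1.42.0, voom in limma 3.58.1, a fit that was not robust, glmTreat against 2-fold), the threshold (0.01) and the design (replicate block), or left out 1 library at a time. Plots were made in matplotlib 3.10.9.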

Additional observations from a re-analysis of the deposited data

How the results depend on the processing

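The 40 genes gave 30 higher and 0 lower calls with TMM. The count of higher calls was 14 with library size only, 19 when the 20 most abundant genes were also left out of the library size, 18 at an adjusted p of 0.01 and 15 with glmTreat against 2-fold, and it ran from 18 to 29 when 1 library was left out. The count of lower calls was 1 with library size only, with and without the 20 most abundant genes, and 1 with the DESeq2 test, and it ran from 0 to 1 when 1 library was left out. That gene was Glb1 each time. The median log2 fold change of the 40 genes was 0.71 with library size only and 1.04 when the 20 most abundant genes were also left out, and it ran from 1.05 to 1.40 without 1 library, lowest without MYC-Off replicate 1. The median of all genes moved by -0.74 and -0.39 under these scalings. With library size only, 9 of the 40 log2 fold changes were negative, against 1 under TMM. Among the called genes that were named by rule, Ctsf (-0.0050) and, outside the 40, Atp6v0a2 (-0.097) reversed. Of the 30 called genes 13 passed under all 17 alternatives: Ctsh, Ctsk, Ctso, Tpp1, Idua, Naglu, Man2b1, Ids, Arsa, Arsb, Grn, Lamp1 and Lamp2. The genes Gaa, Gusb, Manba, Atp6v1a, Atp6v1h and Tfeb passed under none.

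Over all genes, 2527 were called higher with library size only, 2368 at an adjusted p of 0.01 and 2621 with glmTreat, and 2776 to 4317 without 1 library. The counts of lower genes were 5300, 1889 and 1428, and 2337 to 3786 without 1 library. The log2 fold change of Myc ran from -6.08 to -4.26 without 1 library.

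With a replicate block, 20 of the 40 genes were called higher and 0 lower (3152 and 2611 of all genes), with a median of 1.38. The labels do not say whether the replicate numbers pair the samples. Deviations of same-numbered libraries correlated at -0.262, -0.168 and 0.04 across genes, and MYC-On replicate 1 correlated best with MYC-Off replicate 2 (0.321). With 3 libraries in a group that differ in their cell type markers, these correlations cannot show whether the samples are paired. Depth limits Ctsk most in MYC-On, with 6, 8 and 17 reads, while Sgsh had the fewest reads over the 6 libraries (544).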
